A study of Mus musculus with 18 samples.

Results

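A group of 10 genes that hold blood stem cells out of the cell cycle was followed across the libraries. They were picked by symbol, with earlier results of these data known. They are 4 inhibitors of cyclin-dependent kinases (Cdkn1b, Cdkn1c, Cdkn2c and Cdkn2d), the pocket proteins Rb1 and Rbl2, the antiproliferative genes Btg1 and Btg2, and the transcriptional regulators Foxo3 and Gfi1. All 10 were found among the 21003 gene symbols of the count table, and all 10 passed the filter on low counts in both fits. Long-term haematopoietic stem cells (LT-HSCs) were sorted from bone marrow of wild-type mice aged 8 to 12 weeks, and each library held the RNA of 100 such cells. The labels give the strain as B6.SJL in 1 field and as c57 B6 WT in another. One group spent 48 h in medium set to pH 6.9, a second spent the same time in medium at pH 7.4, and the third was fresh and uncultured, listed at pH 7.4, with 6 mice in each. Both cultured groups were kept in IMDM with 10% FBS and the cytokines mSCF, G-CSF and mTPO at 50 ng/ml, under 3% O2, so the pH comparison is between cells that both received cytokines. In bulk libraries fewer cells of a type and less RNA per cell cannot be told apart.

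A stem cell leaves quiescence when cyclin-dependent kinases phosphorylate the pocket proteins, which then release the E2F factors that switch on replication genes. The CIP/KIP inhibitors (Cdkn1b, Cdkn1c) and the INK4 inhibitors (Cdkn2c, Cdkn2d) hold those kinases back, and FOXO factors and GFI1 act on transcription to keep mouse stem cells from cycling and from being exhausted. BTG proteins slow proliferation by bringing the CCR4-NOT deadenylase to messenger RNAs.

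Of the 18 libraries, 3 had under 100000 counts or under 10000 genes detected and stand outside the values below. Fresh mouse 1 had 6311 counts. Fresh mouse 4 had 9408 genes detected from 2854046 counts, and pH 6.9 mouse 3 had 8925 from 1788519 counts. The totals of those 2 lie within the range of the libraries kept. The other 15, namely 5 at pH 6.9, 6 at pH 7.4 and 4 fresh, held 1640817 to 7508120 counts and 11225 to 12792 genes. Values are counts per 1000000 (CPM) scaled by TMM, which are not divided by gene length, so levels are compared between libraries and not between genes. Of the stem cell markers, Procr, Slamf1, Mecom, Hlf, Kit, Ly6a and Mllt3 had counts in all 15 libraries, while Fgd5 was at 0 in 1 and Hoxb5 in 2. The summed CPM of 6 granulocyte-monocyte progenitor markers was 35.3 to 50.9 at pH 6.9 and 1793 to 5212 at pH 7.4 in even-numbered mice, and in odd-numbered mice 168 to 169 at pH 6.9 and 46.1 to 74.9 at pH 7.4. In fresh cells it was 77.5 to 5566. Of these markers Mpo, Prtn3 and Ms4a3 had counts in all 15 libraries, while Elane was at 0 in 7, Ctsg in 3 and Cebpe in 11. The summed stem cell markers were 1149 to 1622 CPM at pH 6.9 and 386 to 634 at pH 7.4 in even-numbered mice, and in odd-numbered mice 1083 to 1426 at pH 6.9 and 885 to 1498 at pH 7.4. First sequencing indices differ between odd-numbered and even-numbered mice and between groups, which makes 6 sets of libraries, each with an index of its own. Within mice of one parity the index changes along with the pH, and the 2 cannot be told apart.

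With the mice of both parities pooled, edgeR's quasi-likelihood test with Benjamini-Hochberg adjustment called 0 of the 10 genes at pH 6.9 against pH 7.4, beside a background of 0% of 10659 genes called. The libraries of the groups overlapped for each of the 10 genes, beside 0.525% of genes without overlap for pH 6.9 against pH 7.4, 1.92% for pH 6.9 against fresh and 1.76% for pH 7.4 against fresh. Again 0 of the 10 were called at pH 6.9 against fresh and at pH 7.4 against fresh, each with a background of 0%. At an unadjusted p under 0.05 the count of the 10 was 0 in each comparison, while 657, 595 and 613 of all genes passed for pH 6.9 against pH 7.4, pH 6.9 against fresh and pH 7.4 against fresh. DESeq2 called 0 of the 10 in each comparison and limma-voom 0. Under limma-voom 2 of the 10 had an unadjusted p under 0.05 for pH 6.9 against pH 7.4, beside 1758 of the 10659 genes. Apart from Gfi1, which had few counts, the largest pooled log2 fold change of pH 6.9 against pH 7.4 was in Cdkn2c, which averaged 24.5 ± 10.8 CPM at pH 6.9 (SD, n = 5) and 15.03 ± 2.51 CPM at pH 7.4 (SD, n = 6), a log2 fold change of 0.70 ± 0.35 (SE) with an adjusted p of 0.823. Several of the genes were split by mouse parity within a group, and levels are given by set. The split by parity was chosen with earlier results of these data known.

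**Figure D1:**
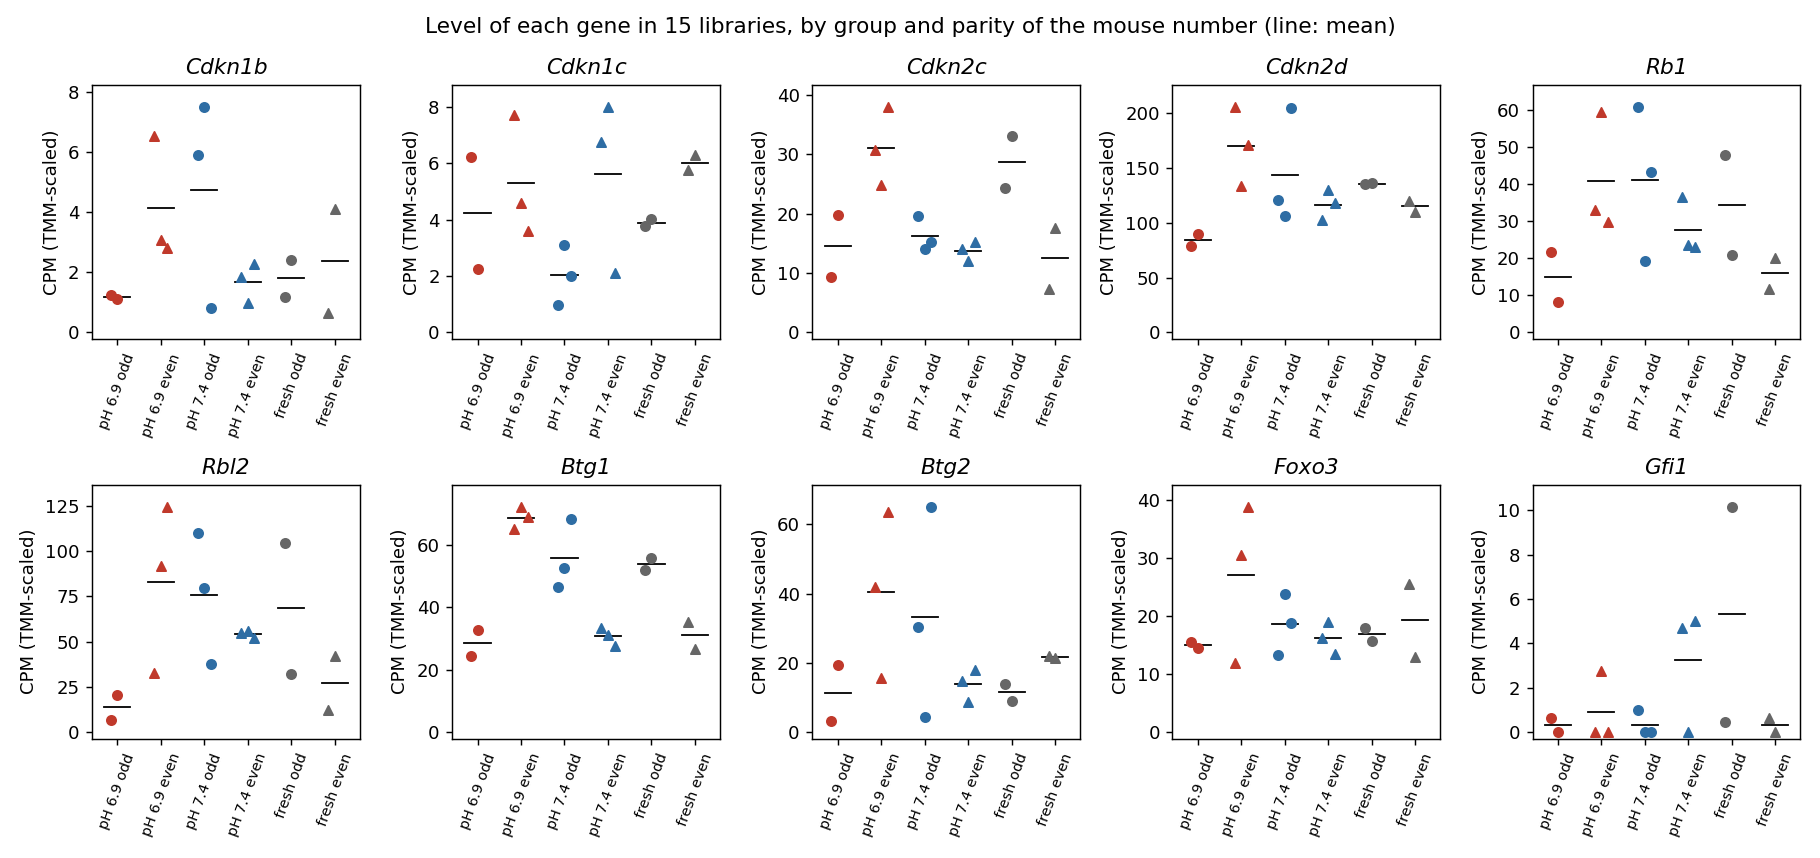
Level of each of the 10 genes (CPM scaled by TMM, vertical axes from 0) in 15 libraries, by group and parity of the mouse number. Points are libraries (circles odd-numbered, triangles even-numbered mice) and lines are means; Btg1 lies between 65.1 and 72.1 CPM in even-numbered mice at pH 6.9, above the 27.7 to 33.3 CPM of even-numbered mice at pH 7.4.

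Btg1 was called in both parities, and in opposite directions. The promoter windows of Btg1 and Rbl2 are shown here, because both genes passed the test of the difference between parities and the windows hold unlike elements. Each is the 250 bases before the RefSeq start on GRCm38.p6, in the direction of the gene, with letters matching a searched motif in capitals.

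Btg1 (chr10:96616751-96617000, plus strand): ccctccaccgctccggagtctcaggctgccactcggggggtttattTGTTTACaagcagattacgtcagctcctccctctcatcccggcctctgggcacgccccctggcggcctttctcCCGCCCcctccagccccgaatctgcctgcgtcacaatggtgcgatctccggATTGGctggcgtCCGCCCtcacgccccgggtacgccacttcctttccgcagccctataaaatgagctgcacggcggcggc
Rbl2 (chr8:91069807-91070056, plus strand): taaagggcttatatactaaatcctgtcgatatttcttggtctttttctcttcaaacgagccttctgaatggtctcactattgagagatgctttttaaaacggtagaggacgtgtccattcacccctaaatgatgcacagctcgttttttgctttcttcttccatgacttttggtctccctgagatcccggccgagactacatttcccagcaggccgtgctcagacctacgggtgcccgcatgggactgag

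The motifs searched on both strands were the FOXO core GTAAACA, the E2F core TTTNNCGC, the CCAAT box CCAAT, the GC box GGGCGG and the E-box CACGTG. They occur in 3.17%, 4.28%, 33.8%, 32.7% and 6.02% of 32851 such windows. The Btg1 window holds the FOXO core on the reverse strand, starting 204 bases before the start, with 1 CCAAT box and 2 GC boxes nearer to it. The Rbl2 window holds none of the 5 motifs as spelled here. Cdkn2d also passed the test of the difference between parities, and its window, not shown, holds 1 CCAAT box and 3 GC boxes. RefSeq promoter entries matched 8 of the 10 genes, with 10 windows in all, and of these windows the one of Btg1 had a FOXO core, while 0 had an E2F core or an E-box. A match describes the letters and says nothing of binding.

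Btg1, which slows proliferation and binds the CCR4-NOT deadenylase, lies at chromosome 10, 96617006 to 96622809 on GRCm38 (GENCODE M21). In odd-numbered mice it had 24.3 and 32.7 CPM at pH 6.9, against 46.6, 52.7 and 68.1 CPM at pH 7.4. Even-numbered mice had 65.1, 72.1 and 68.8 CPM at pH 6.9, against 33.3, 31.1 and 27.7 CPM at pH 7.4. The libraries of the 2 pH values did not overlap in either parity, and pH 6.9 was the lower one in odd-numbered mice and the higher one in even-numbered mice.

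At pH 6.9 against pH 7.4 Btg1 fell in odd-numbered mice (log2 fold change -0.95 ± 0.29, SE; edgeR adjusted p of 0.0407). It was the 1 gene of the 10 that was called there, beside a background of 10.6% of 11226 genes called, 5.64% downwards. In even-numbered mice Btg1 rose by 1.16 ± 0.25 on the log2 scale with an edgeR adjusted p of 0.0099, again the 1 gene of the 10, beside a background of 6.24% called and 2.68% called upwards. The difference between the parities, odd minus even, was -2.11 ± 0.38 with an edgeR adjusted p of 0.000917.

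The fall in odd-numbered mice was near the threshold and its call did not hold in 13 of 22 alternatives. The edgeR adjusted p was 0.0704 with the mouse number as a term, 0.101 under limma-voom, 0.0852 without a filter on low counts and 0.210 with all 18 libraries. Leaving out 1 library ended the call for 9 of the 15: the adjusted p was 0.253 without pH 6.9 mouse 1, 0.0830 without pH 6.9 mouse 5, 0.0520 without pH 6.9 mouse 6, 0.0567, 0.0609, 0.0515, 0.0915 and 0.0544 without pH 7.4 mouse 2, 3, 4, 5 and 6, and 0.0534 without fresh mouse 5. The rise in even-numbered mice lost its call without pH 7.4 mouse 6, with an adjusted p of 0.0730, and with all 18 libraries. In that fit the cultured libraries of even-numbered mice are the same ones, and the log2 fold change was 1.17 with a standard error of 0.53 and an adjusted p of 0.882. The difference between parities lost its call with all 18 libraries, at an edgeR adjusted p of 0.0971, and kept it in the other 21 alternatives. In the even-numbered mice summed granulocyte-monocyte markers were lower and summed stem cell markers higher at pH 6.9 than at pH 7.4, without overlap (values above). In the odd-numbered mice the granulocyte-monocyte sum was higher at pH 6.9 (values above). There the 5 megakaryocyte markers summed to 84.7 to 99.2 CPM at pH 6.9 and 121 to 1033 CPM at pH 7.4, and the 6 erythroid markers to 147 to 198 CPM at pH 6.9 and 11.3 to 121 CPM at pH 7.4, again without overlap. All 5 megakaryocyte markers had counts in each of the 15 libraries, while of the erythroid ones Car1 was at 0 in 12, Hba-a1 in 6, Klf1 in 3 and Epor in 1. The part of these markers in the Btg1 results was not tested.

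**Figure D2:**
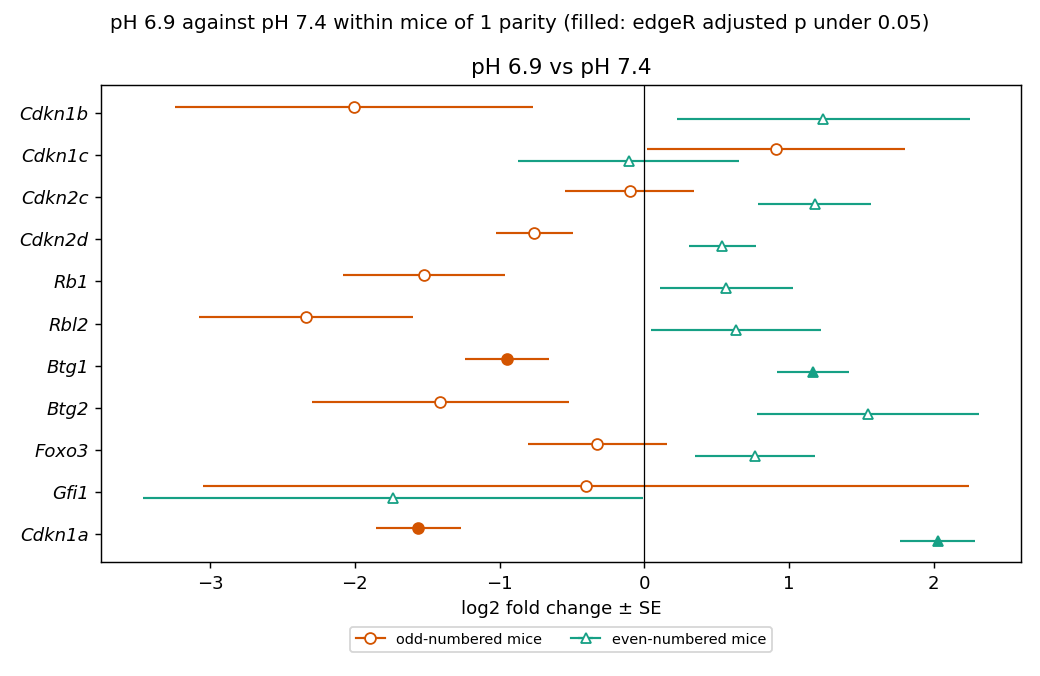
Log2 fold change of pH 6.9 against pH 7.4 (horizontal axis, bars are SE) for the 10 genes and Cdkn1a, fitted within odd-numbered (circles) and even-numbered mice (triangles); filled marks have an edgeR adjusted p under 0.05. Btg1 lies at -0.95 in odd-numbered and at 1.16 in even-numbered mice.

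Of the INK4 inhibitors, Cdkn2d (p19-INK4D, which blocks CDK4 and CDK6) followed the same order of sets. It had 79.1 and 89.7 CPM at pH 6.9 in odd-numbered mice, against 121, 106 and 204 CPM at pH 7.4. Even-numbered mice had 205, 134 and 171 CPM at pH 6.9, against 102, 130 and 118 CPM at pH 7.4. The libraries did not overlap in either parity, although 134 CPM at pH 6.9 in mouse 4 lay close to the 130 CPM of the same mouse at pH 7.4.

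Neither parity alone passed the edgeR test for Cdkn2d, with a log2 fold change of -0.76 ± 0.26 and an adjusted p of 0.0733 in odd-numbered mice, and 0.54 ± 0.23 and 0.186 in even-numbered mice. The difference between parities passed at -1.30 ± 0.35 with an edgeR adjusted p of 0.0148. It was 1 of 3 of the 10 genes called in that contrast, beside a background of 17.2% called and 8.72% called with a negative difference. It did not pass with all 18 libraries (adjusted p of 0.132) or without pH 6.9 mouse 1 (adjusted p of 0.0663).

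Cdkn2c (p18-INK4C), an INK4 inhibitor whose loss in mice increases stem cell self-renewal, had 9.34 and 19.8 CPM at pH 6.9 in odd-numbered mice, against 19.6, 14.1 and 15.1 CPM at pH 7.4. The even-numbered mice had 30.8, 24.7 and 37.9 CPM at pH 6.9, against 14.1, 12.1 and 15.2 CPM at pH 7.4. The odd-numbered libraries overlapped, while each of the 3 even-numbered libraries at pH 6.9 lay above each of the 3 at pH 7.4. The edgeR fit gave a log2 fold change of -0.10 ± 0.45 (adjusted p of 0.919) in odd-numbered mice and 1.18 ± 0.39 (adjusted p of 0.083) in even-numbered mice.

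The CIP/KIP inhibitors were near the lower limit of measurement. Cdkn1b (p27), which binds CDK2 complexes, had 2 to 14 counts per library at pH 6.9, 2 to 53 at pH 7.4 and 2 to 13 in fresh cells. Odd-numbered mice had 1.25 and 1.11 CPM at pH 6.9, against 5.88, 7.47 and 0.797 CPM at pH 7.4. Even-numbered mice had 6.51, 3.05 and 2.79 CPM at pH 6.9, against 1.82, 0.973 and 2.27 CPM at pH 7.4. The even-numbered libraries did not overlap, with pH 6.9 above, and the odd-numbered ones did. Cdkn1c (p57), which mouse stem cells need to stay quiescent, averaged 4.86 ± 2.15 CPM at pH 6.9, 3.82 ± 2.86 at pH 7.4 and 4.96 ± 1.25 in fresh cells (SD, n = 5, 6 and 4). Its ranges of 2.23 to 7.69, 0.980 to 7.98 and 3.78 to 6.30 CPM overlapped. Its log2 fold change of pH 6.9 against pH 7.4 was 0.91 ± 0.89 for odd-numbered mice (edgeR adjusted p of 0.563) and -0.11 ± 0.76 for even-numbered mice (0.962). The kit keeps no strand, so reads of Cdkn1c and of the antisense transcript Gm44732 over its exons cannot be told apart.

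Counted over the 10 genes, 9 had a negative log2 fold change of pH 6.9 against pH 7.4 in odd-numbered mice, with a median of -0.85 beside -0.08 over all genes tested. In even-numbered mice 8 were positive, with a median of 0.70 beside 0.07 over all genes. Libraries at pH 6.9 lay wholly below those at pH 7.4 for Cdkn2d, Rbl2 and Btg1 in odd-numbered mice, where 18.7% of all genes did so, and wholly above for 0 of the 10, beside 19.1%. They lay wholly above for Cdkn1b, Cdkn2c, Cdkn2d and Btg1 in even-numbered mice, where 15.5% of all genes did so, and wholly below for 0 of the 10, beside 15.5%. The shares called among the 10 genes in each parity, 1 of 10, are near the backgrounds of 10.6% and 6.24%.

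The p21 inhibitor Cdkn1a, the p53 target of the same CIP/KIP family, had 110 and 81.7 CPM at pH 6.9 against 211, 399 and 229 CPM at pH 7.4 in odd-numbered mice, and 225, 286 and 293 CPM at pH 6.9 against 60.9, 77.6 and 58.7 CPM at pH 7.4 in even-numbered mice. It fell by 1.56 ± 0.30 on the log2 scale in odd-numbered mice (edgeR adjusted p of 0.00354) and rose by 2.03 ± 0.26 in even-numbered mice (0.000471). With all 18 libraries, where 58 and 0 of all genes were called, those adjusted p were 0.182 and 0.313. Without pH 6.9 mouse 5 the call in odd-numbered mice just missed the threshold of 0.05.

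Rbl2 (p130), the pocket protein that joins E2F4 and MuvB in the DREAM repressor of resting cells, lies at chromosome 8, 91070057 to 91123844. It had 6.85 and 20.6 CPM at pH 6.9 in odd-numbered mice, against 110, 79.6 and 37.9 CPM at pH 7.4. In even-numbered mice it had 32.5, 91.6 and 124 CPM at pH 6.9, against 54.7, 55.6 and 51.9 CPM at pH 7.4. Odd-numbered libraries at pH 6.9 were the lowest of the cultured ones, and the even-numbered ones at pH 6.9 lay on either side of those at pH 7.4.

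For Rbl2 the log2 fold change of pH 6.9 against pH 7.4 was -2.34 ± 0.74 (edgeR adjusted p of 0.0614) in odd-numbered mice and 0.63 ± 0.59 (0.603) in even-numbered mice. The difference between parities was -2.97 ± 0.93 with an edgeR adjusted p of 0.0438. That call did not hold with the mouse number as a term (adjusted p of 0.0931), under limma-voom (0.0848) or with all 18 libraries (0.0883). It was also lost without pH 6.9 mouse 1 (0.166), mouse 4 (0.0666), mouse 5 (0.0626) or mouse 6 (0.0948), and without pH 7.4 mouse 1 (0.0886), 2 (0.0774), 3 (0.0757), 4 (0.0727) or 6 (0.0863). Exons of Aktip and Gm45464 overlap Rbl2 on the opposite strand.

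Rb1, the retinoblastoma protein gene at chromosome 14, 73183673 to 73325822, had 21.8 and 8.22 CPM at pH 6.9 in odd-numbered mice, against 60.8, 19.2 and 43.4 CPM at pH 7.4. In even-numbered mice it had 33.1, 59.5 and 29.7 CPM at pH 6.9, against 36.4, 23.5 and 23.0 CPM at pH 7.4. Libraries of the 2 pH values overlapped in both parities. Neither contrast passed the edgeR test (-1.52 ± 0.56, adjusted p of 0.0904, and 0.57 ± 0.46, adjusted p of 0.532), and the difference between parities, -2.09 ± 0.72, had an adjusted p of 0.0530. Exons of Lpar6 and Rcbtb2 overlap Rb1, and their reads cannot be told apart by strand.

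Btg2, the p53-inducible relative of Btg1, spread widely among libraries of a set. It had 3.11 and 19.4 CPM at pH 6.9 in odd-numbered mice, against 30.4, 4.37 and 64.9 CPM at pH 7.4. In even-numbered mice it had 42.0, 15.6 and 63.6 CPM at pH 6.9, against 14.8, 8.76 and 17.96 CPM at pH 7.4. The libraries overlapped in both parities, and the log2 fold changes of -1.41 ± 0.89 and 1.55 ± 0.76 had edgeR adjusted p of 0.340 and 0.277.

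Foxo3, the FOXO factor that mouse stem cells need for long-term maintenance, averaged 22.2 ± 11.7 CPM at pH 6.9, 17.3 ± 3.95 at pH 7.4 and 18.04 ± 5.41 in fresh cells (SD, n = 5, 6 and 4). Its highest levels, 38.7 and 30.5 CPM, were in mouse 6 and mouse 4 at pH 6.9, while the other 13 libraries lay between 11.8 and 25.5 CPM. Its log2 fold change of pH 6.9 against pH 7.4 was -0.32 ± 0.48 for odd-numbered mice (edgeR adjusted p of 0.722) and 0.77 ± 0.42 for even-numbered mice (0.315).

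Other FOXO factors and FOXO target genes passed the edgeR test at pH 6.9 against pH 7.4, again with opposite directions in the parities. Of 12 tested, 5 fell and 1 rose in odd-numbered mice, with a median log2 fold change of -0.94 beside -0.08 over all genes, of which 10.6% were called and 5.64% called downwards. In even-numbered mice 3 rose and 1 fell, with a median of 0.95 beside 0.07 over all genes, of which 6.24% were called and 2.68% called upwards. Of the 12, 7 passed the edgeR test of the difference between parities, 6 of them negative, beside 17.2% of all genes called and 8.72% called with a negative difference.

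Cat, the catalase gene that breaks down hydrogen peroxide, averaged 186 ± 52.4 CPM at pH 6.9 and 530 ± 59.4 at pH 7.4 in odd-numbered mice (SD, n = 2 and 3), a log2 fold change of -1.50 ± 0.23 with an edgeR adjusted p of 0.000923. Ccng2, a cyclin G gene that FOXO factors induce in resting cells, averaged 13.8 ± 1.83 CPM at pH 6.9 and 75.3 ± 29.1 at pH 7.4 in odd-numbered mice (SD, n = 2 and 3; -2.41 ± 0.45, edgeR adjusted p of 0.00315). In even-numbered mice neither passed the test, at 0.62 ± 0.20 for Cat and 1.04 ± 0.35 for Ccng2 (edgeR adjusted p of 0.0713 and 0.0848). The sestrin gene Sesn1, which restrains mTORC1, fell by 0.88 ± 0.23 for odd-numbered mice (edgeR adjusted p of 0.0194) and rose by 0.97 ± 0.20 for even-numbered mice (0.00671).

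Txnip, which binds thioredoxin and limits glucose uptake, averaged 175 ± 28.9 CPM in the 3 even-numbered mice at pH 6.9 and 60.1 ± 19.3 CPM in the 3 at pH 7.4 (SD; log2 fold change 1.54 ± 0.28, edgeR adjusted p of 0.00318). The PI3K inhibitor gene Pik3ip1 rose by 1.46 ± 0.39 there (adjusted p of 0.0333) and fell by 1.58 ± 0.47 in odd-numbered mice (adjusted p of 0.0369). Sod2, the mitochondrial superoxide dismutase gene, ran the other way, at 0.76 ± 0.19 for odd-numbered mice (edgeR adjusted p of 0.0173) and -0.59 ± 0.17 for even-numbered mice (0.0481). With all 18 libraries 0 of the 12 were called in either parity. With the mouse number as a term 4 of the 12 were called in odd-numbered mice, against 6 without it, and 4 in even-numbered mice. The same fit called 785 and 636 of all genes, against 1187 and 700 without that term. In even-numbered mice DESeq2 called 7 and limma-voom 8, beside 1099 and 1700 of all genes, against 700 with edgeR. Leaving out 1 library gave 2 to 7 calls in odd-numbered mice, with 2 without pH 6.9 mouse 1 and 3 without pH 6.9 mouse 5 or pH 7.4 mouse 3. In even-numbered mice it gave 1 to 4, with 1 without pH 6.9 mouse 6 or pH 7.4 mouse 6 and 2 without pH 7.4 mouse 2. Over the leave-outs 163 to 898 of all genes were called in even-numbered mice. The count over all genes moved in odd-numbered mice too, so these shifts cannot be read as particular to the 12. The summed granulocyte-monocyte and stem cell markers differ between the pH values in the even-numbered mice, and the granulocyte-monocyte, megakaryocyte and erythroid ones in the odd-numbered mice (values above), and their part in the FOXO counts was not tested.

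**Figure D3:**
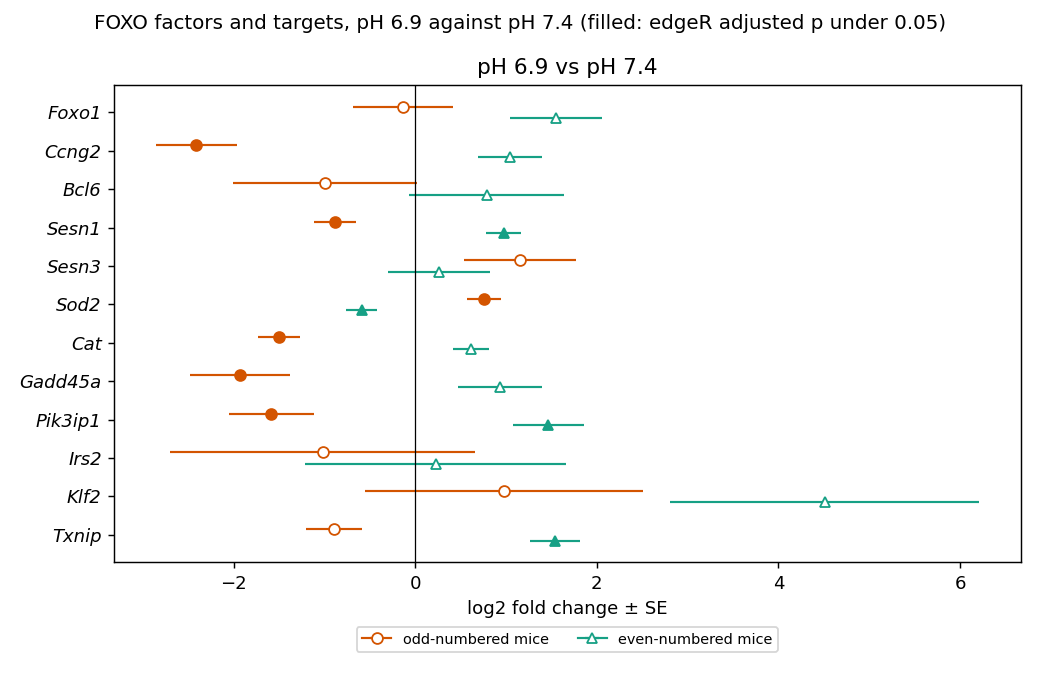
Log2 fold change of pH 6.9 against pH 7.4 (horizontal axis, bars are SE) of 12 FOXO factors and targets in odd-numbered (circles) and even-numbered mice (triangles); filled marks have an edgeR adjusted p under 0.05. Filled circles lie left of 0 for 5 genes and right of it for Sod2.

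Gfi1, the repressor that restrains stem cell proliferation in mice, was at 0 in 7 of the 15 libraries, where a count of 0 allows 0.418 to 1.77 CPM. It had 1 and 9 counts in mouse 1 and mouse 4 at pH 6.9, and 2, 18 and 31 counts in mouse 1, mouse 2 and mouse 6 at pH 7.4. In fresh cells it had 2, 2 and 38 counts in mouse 2, mouse 3 and mouse 5. The 3 libraries with the highest Gfi1, at 5.02 and 4.68 CPM at pH 7.4 and 10.1 CPM in fresh cells, had summed granulocyte-monocyte markers of 5212, 1925 and 5566 CPM. The fourth library with such a sum, pH 7.4 mouse 4 with 1793 CPM, had Gfi1 at 0. The part of such cells in the Gfi1 values was not tested. No contrast of Gfi1 passed the edgeR test, and exons of A430072P03Rik overlap it on the opposite strand.

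Other partner genes were counted by list at pH 6.9 against pH 7.4, beside the 10.6% of all genes called in odd-numbered mice and the 6.24% in even-numbered mice. Of 12 CDK inhibitors and targets tested, Cdk4 rose and Cdkn1a fell in odd-numbered mice, and Cdkn1a rose and Cdk4 fell in even-numbered mice. Cdk4, the kinase that INK4 proteins block, averaged 1083 ± 14.3 CPM at pH 6.9 and 695 ± 83.4 at pH 7.4 in odd-numbered mice (SD, n = 2 and 3). In even-numbered mice it averaged 727 ± 161 CPM at pH 6.9 and 1128 ± 132 CPM at pH 7.4 (SD over 3 libraries each). Its log2 fold changes were 0.64 ± 0.19 and -0.63 ± 0.17, with edgeR adjusted p of 0.0339 and 0.0316. Of 13 pocket protein partners 0 passed in odd-numbered mice and 1 fell in even-numbered mice, the E2F dimer partner Tfdp1 (-0.69 ± 0.19, edgeR adjusted p of 0.0371). Of 14 BTG relatives and CCR4-NOT subunits 0 passed in odd-numbered mice and 1 fell in even-numbered mice, the subunit Cnot9 (-0.73 ± 0.17, edgeR adjusted p of 0.0179).

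Of 6 GFI1 partners and related repressors, the paralog Gfi1b fell in odd-numbered mice (-1.65 ± 0.44, edgeR adjusted p of 0.0283), where megakaryocyte sums were lower and erythroid sums higher at pH 6.9 (values above; their part was not tested), and the deacetylase Hdac2 fell in even-numbered mice (-0.61 ± 0.17, adjusted p of 0.0422, a call lost with the mouse number as a term). Of 18 E2F-driven proliferation genes, 2 rose and 1 fell in odd-numbered mice and 1 fell in even-numbered mice. In odd-numbered mice the thymidylate synthase gene Tyms rose (0.66 ± 0.19, edgeR adjusted p of 0.0346) and the helicase subunit Mcm2 fell (-0.94 ± 0.26, adjusted p of 0.0262). The replication licensing gene Cdc6 fell in even-numbered mice (-0.82 ± 0.22, edgeR adjusted p of 0.0331). With the mouse number as a term 1 of the 18 was called in odd-numbered mice. With all 18 libraries 0 genes of these 5 lists passed in either parity. Leaving out 1 library moved most of these counts. It also moved the count over all genes in both parities, to between 163 and 898 in even-numbered mice. The shifts below therefore cannot be read as particular to a list. In odd-numbered mice the CDK list had 1 call without pH 6.9 mouse 1 or pH 7.4 mouse 1, 2 or 5 and 0 without pH 6.9 mouse 5. The GFI1 list had 0 without pH 6.9 mouse 1 or pH 7.4 mouse 1 or 5, and the pocket list had 1 without pH 7.4 mouse 5. The E2F list had 0 without pH 7.4 mouse 1, 1 without pH 6.9 mouse 1 and 8 without pH 7.4 mouse 5. In even-numbered mice the CDK list had 1 call without pH 6.9 mouse 2 or 6 or pH 7.4 mouse 4 or 6. Without pH 7.4 mouse 2, 4 or 6 or pH 6.9 mouse 6 the pocket, BTG, GFI1 and E2F lists had 0. The pocket list also had 0 without pH 6.9 mouse 2, the GFI1 list without pH 6.9 mouse 4 and the E2F list without pH 6.9 mouse 2 or mouse 4. The E2F list had 2 calls without pH 7.4 mouse 3 and 3 without pH 7.4 mouse 5.

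Fresh cells give the second point of comparison, and they share the pH 6.9 and pH 7.4 libraries with the comparisons above. At pH 7.4 against fresh 0 of the 10 genes were called, beside backgrounds of 0.107% for the odd-numbered mice and 0.116% for the even-numbered ones, and 0 in the difference between parities, beside 0.0891%. At an unadjusted p under 0.05 the count was 0 in each parity and 1 in the difference, Gfi1. Of all 11226 genes tested, 1167 passed so in odd-numbered mice, 1366 in even-numbered mice and 1116 in the difference. DESeq2 and limma-voom also called 0 of the 10 in each of these 3 contrasts. Btg1 had 46.6, 52.7 and 68.1 CPM at pH 7.4 in odd-numbered mice, against 52.0 and 55.8 CPM in fresh cells. In even-numbered mice Btg1 had 33.3, 31.1 and 27.7 CPM at pH 7.4, against 35.4 and 26.8 CPM in fresh cells. The libraries overlapped in both parities, with log2 fold changes of pH 7.4 against fresh of 0.05 ± 0.27 and -0.02 ± 0.28 (edgeR adjusted p of 0.972 and 0.991). Cdkn1c and Cdkn2c lay wholly lower at pH 7.4 than in fresh cells in odd-numbered mice, where 11.5% of all genes did, and 0 lay wholly higher, beside 11.8%. In even-numbered mice Rb1 and Rbl2 lay wholly higher, as did 20.1% of all genes, and Btg2 wholly lower, as did 16.8%.

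At pH 6.9 against fresh 0 of the 10 genes were called in odd-numbered mice, beside a background of 0.49%. At an unadjusted p under 0.05 there were 4 of the 10, beside 1478 of all 11226 genes tested. Without a filter on low counts 1 was called, Rbl2. Of the 10, 5 lay wholly below fresh cells there (Cdkn2c, Cdkn2d, Rbl2, Btg1 and Foxo3), where 23.4% of all genes did, and 0 wholly above, beside 20.4%. DESeq2 and limma-voom called 0 of the 10. In these odd-numbered mice the stem cell markers summed to 1083 to 1426 CPM at pH 6.9 and 556 to 825 CPM in fresh cells. The megakaryocyte sums were 84.7 to 99.2 and 143 to 339 CPM, and the erythroid sums 147 to 198 and 23.8 to 47.7 CPM. Monocyte, B lymphoid and T lymphoid sums were also wholly higher at pH 6.9, while the granulocyte-monocyte sums overlapped. The part of these markers in the values of the 10 genes was not tested. In even-numbered mice Btg1 rose by 1.14 ± 0.29 on the log2 scale with an edgeR adjusted p of 0.0160, the 1 gene called, beside a background of 10.1% called and 4.98% called upwards. That call was lost with all 18 libraries (adjusted p of 0.140), without fresh mouse 2 (0.0666) or mouse 6 (0.145), and without pH 6.9 mouse 6 (0.0545). In these even-numbered mice the stem cell markers summed to 1149 to 1622 CPM at pH 6.9 and 662 to 742 CPM in fresh cells. The granulocyte-monocyte markers summed to 35.3 to 50.9 CPM at pH 6.9 and 117 to 272 CPM in fresh cells, and the megakaryocyte markers to 63.2 to 426 CPM at pH 6.9 and 436 to 587 CPM in fresh cells. None of these ranges overlap, and their part in the Btg1 result was not tested. Cdkn2c, Cdkn2d, Rb1 and Btg1 lay wholly above fresh cells in even-numbered mice, where 21.3% of all genes did, and 0 wholly below, beside 19.1%.

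The difference between parities in the change at pH 6.9 against fresh was called for 5 of the 10 genes, all negative, beside a background of 12% called and 6.39% called with a negative difference. It was -2.04 ± 0.42 for Btg1 (edgeR adjusted p of 0.00469), which passed in each of 22 alternatives. It was -3.83 ± 1.04 for Rbl2 (0.0315), -2.25 ± 0.66 for Cdkn2c (0.0332), -2.64 ± 0.80 for Rb1 (0.0386) and -1.24 ± 0.39 for Cdkn2d (0.0429). With the mouse number as a term Btg1, Cdkn2c and Rb1 were called, while Rbl2 had an adjusted p of 0.0622 and Cdkn2d 0.0683. Rbl2 also lost its call under limma-voom (adjusted p of 0.0901) and Cdkn2d with DESeq2 size factors (0.0572). With all 18 libraries Btg1 and Rbl2 passed, 2 of the 10, beside 644 of all genes, against 1349 with the 15 libraries. Leaving out 1 library left 1 to 5, with 1 without fresh mouse 2 or mouse 3, 2 without pH 6.9 mouse 1 or mouse 6, and 3 without fresh mouse 5, pH 6.9 mouse 2 or mouse 5, or pH 7.4 mouse 2.

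**Figure D4:**
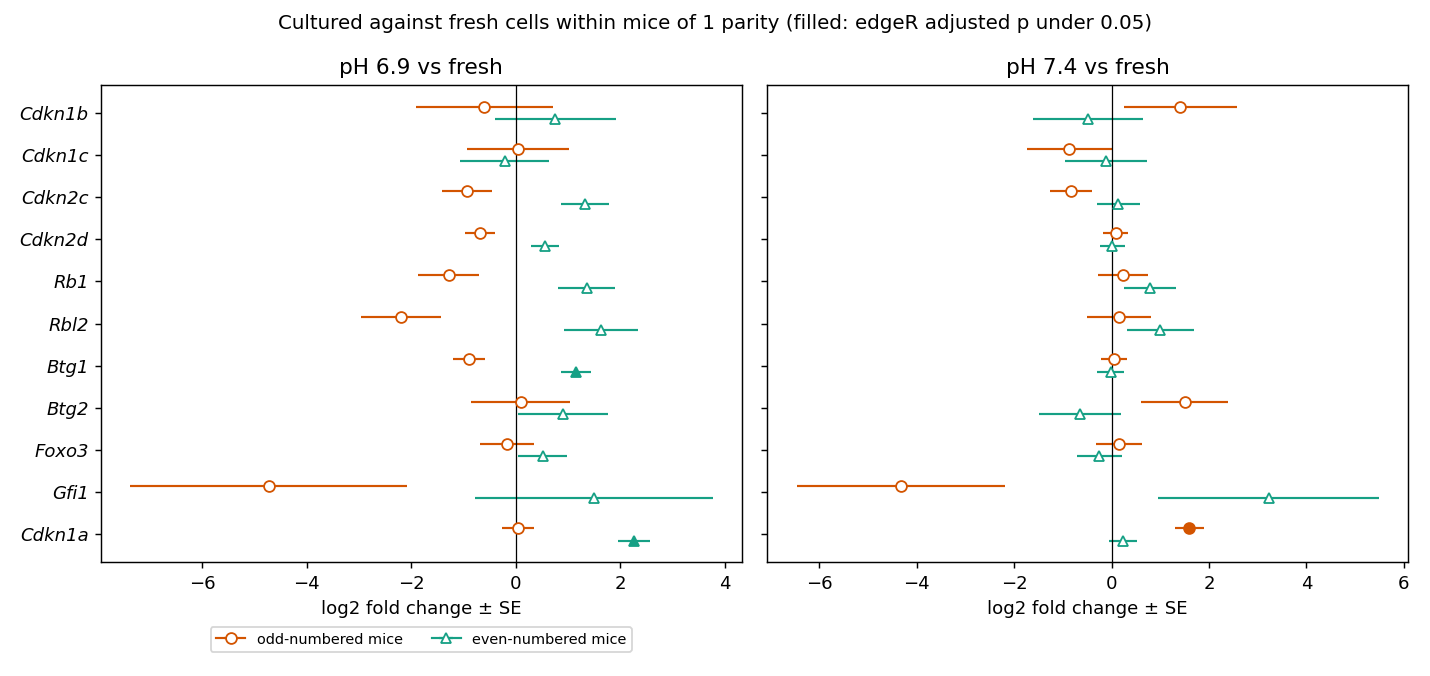
Log2 fold change of pH 6.9 against fresh (left) and pH 7.4 against fresh (right) for the 10 genes and Cdkn1a (horizontal axes, bars are SE) within odd-numbered (circles) and even-numbered mice (triangles); filled marks have an edgeR adjusted p under 0.05. Btg1 is filled at 1.14 for pH 6.9 in even-numbered mice and lies at 0.05 and -0.02 for pH 7.4. Cdkn1a is filled at 2.26 for pH 6.9 in even-numbered mice and at 1.60 for pH 7.4 in odd-numbered mice, the second a call lost in 8 of 22 alternatives.

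Over the 15 libraries, which share an index and a group within each set, 31 of the 45 pairs of the 10 genes had a positive Pearson r of log2 CPM, with a median of 0.19. The closest pairs were Cdkn2d with Btg1 (0.76), Cdkn2d with Btg2 (0.72), Cdkn2c with Btg1 (0.66) and Rb1 with Rbl2 (0.62). Among the other tested genes with a mean of at least 10 CPM, the most alike was Atp11b for Rbl2 (r of 0.93), Apobec1 for Btg1 (0.92), Btk for Cdkn1b (0.91), Pdcd4 for Btg2 (0.90), Mtmr1 for Rb1 (0.87), Rchy1 for Cdkn2d (0.86) and Gpkow for Cdkn2c (0.84). For Foxo3, Cdkn1c and Gfi1 it was Pde2a (0.81), Naprt (0.81) and Smg8 (0.77). These r describe the 15 libraries and carry no test.

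In the libraries left out above, Btg1 had 8 counts (4.47 CPM) in pH 6.9 mouse 3, 11 counts (3.85 CPM) in fresh mouse 4 and 1 count in fresh mouse 1. Rbl2 had 2, 20 and 1 counts and Cdkn2d 82, 179 and 1 counts in the same libraries. Foxo3 had 1, 10 and 0 counts there, Cdkn2c 27, 0 and 0, Rb1 30, 69 and 0, and Cdkn1b 6, 27 and 0. Cdkn1c had 9, 0 and 0, Btg2 3, 0 and 0, and Gfi1 0, 4 and 0. The 27 counts of Cdkn1b in fresh mouse 4 are 9.46 CPM, above its highest of 7.47 CPM in the 15 libraries. The CPM of the libraries left out are not scaled by TMM.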

How the data were processed

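RNA of sorted LT-HSCs was amplified with SMART-Seq v4, made into Nextera XT libraries and sequenced as pairs of 75 bp, per the labels' protocols. Per the submitters' processing notes, kallisto was used with mm10. From it the authors deposited a table of estimated counts by gene symbol, also called expected counts, in whole numbers. The sources used here do not say how transcripts were summed to genes. Without molecular identifiers, the limit that a count of 0 allows (3 counts) covers counting error only.

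Libraries under 100000 counts or 10000 genes detected were left out, which removed 3 of 18. Genes were filtered with filterByExpr, scaled with TMM and fitted in edgeR 4.0.16 by its robust quasi-likelihood method (R 4.3.3), with 1 coefficient per group (10659 genes) or per set of group and mouse parity (11226 genes). Adjusted p are Benjamini-Hochberg over all genes tested, with a threshold of 0.05. They measure the spread between these libraries, of which a set holds 2 or 3. Log2 CPM for correlations used a prior count of 2. The 10 genes, the gene lists and the split by parity were chosen with earlier results of these data known. Pathway genes are named by rule: up to 3 per direction with the smallest adjusted p in each list. Some genes of the lists are not reported here by name.

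The design names 6 individual mice, so mouse numbers were taken to pair libraries, and adding the mouse number to the model was an alternative. Over 12 same-number pairs the correlation of deviations from group means was -0.27 to 0.31, over 0.1 in 2, and from set means -0.13 to 0.24, over 0.1 in 4. Other alternatives were no filter, a filter of 5 CPM in 3 libraries, DESeq2 size factors, DESeq2 1.42.0, limma-voom (limma 3.58.1), all 18 libraries and each library left out in turn. Gene positions are from GENCODE M21 (GRCm38), promoter windows from RefSeq. No 2 libraries held identical counts.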

Additional observations from a re-analysis of the deposited data

Results flagged for a closer look

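Among 30 sets of values (10 genes in 3 groups) checked for a lone extreme library, 3 had one by Dixon's criterion, which chance meets in about 1 of 20 sets. Cdkn2d at 204 CPM in pH 7.4 mouse 5 lay far above the other pH 7.4 libraries. Gfi1 at 2.75 CPM in pH 6.9 mouse 4 and at 10.1 CPM in fresh mouse 5 stood above the rest of their groups.

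The change at pH 6.9 against pH 7.4 differed between odd-numbered and even-numbered mice by edgeR's test of the difference for Btg1 (-2.11 on the log2 scale, odd minus even), Cdkn2d (-1.30) and Rbl2 (-2.97). The change at pH 6.9 against fresh, which shares the pH 6.9 libraries, differed for Btg1 (-2.04), Cdkn2c (-2.25), Cdkn2d (-1.24), Rb1 (-2.64) and Rbl2 (-3.83). Mouse parity goes with the sequencing index in each group, and the 2 cannot be told apart.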

How the results depend on the processing

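Over 7 alternatives and 15 leave-outs, of 374 values of called genes 294 kept their direction and call, 80 kept their direction and lost the call, and 0 reversed. These values include Cdkn1a, which is not one of the 10 genes. Among the 10, the calls kept ranged from 8 of 22 for Cdkn2d to 22 of 22 for Btg1, both in the difference between parities at pH 6.9 against fresh. The number of the 10 genes called at pH 6.9 against pH 7.4 in odd-numbered mice (1) was 3 without a filter, 2 with DESeq2, 0 with limma-voom, 0 with all 18 libraries, 0 with the replicate block and 0 to 2 over leave-outs. In even-numbered mice (1) it was 2 without a filter, 2 with DESeq2, 3 with limma-voom, 0 with all 18 libraries and 0 to 1 over leave-outs. The difference between parities (3) was 5 without a filter, 5 with DESeq2, 0 with all 18 libraries and 2 to 4 over leave-outs. At pH 6.9 against fresh the count in odd-numbered mice (0) was 1 without a filter. In even-numbered mice (1) it was 3 without a filter, 2 with DESeq2, 0 with all 18 libraries and 0 to 1 over leave-outs. The difference (5) was 2 with all 18 libraries, 3 with the replicate block and 1 to 5 over leave-outs. The pooled comparisons and those of pH 7.4 against fresh stayed at 0 in each alternative. The replicate block changed no call of the 10 genes beyond those given in the report. Counts over all genes moved too, among the alternatives and over the leave-outs. At pH 6.9 against pH 7.4 in odd-numbered mice 1187 were called. DESeq2 called 1668, limma-voom 1167, the replicate block 785 and all 18 libraries 58. In the same order the counts were 700, 1099, 1700, 636 and 0 in even-numbered mice. For the difference they were 1934, 2326, 2376, 1614 and 159. At pH 6.9 against fresh in even-numbered mice 1139 were called, and 50 with all 18 libraries. The cause of these shifts was not tested. Sets of 2 libraries leave a lone library when 1 is left out, which is assumed to vary like the others. Gfi1 had as few as 0 counts in a library and Cdkn1b and Cdkn1c as few as 2, where counting error is large.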
